A study of Mus musculus with 4 samples.

Results

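The 10 genes described here encode proteins that bring fatty acids into cells and carry them inside. They were chosen by name: the membrane receptor Cd36, the fatty acid transport proteins Slc27a1, Slc27a2 and Slc27a4, and the fatty acid binding proteins Fabp1, Fabp2, Fabp3, Fabp4, Fabp5 and Fabp7. All 10 were found among the 54532 genes of the count table. The 4 libraries come from livers of mice with a liver-specific Cpt1a knockout, fasted for 24 h. The header name of this group joins Cpt1a and AlbCre. Cre under the albumin promoter acts in hepatocytes, so other liver cells are expected to keep the gene. The authors deposited 3 comparisons: these livers with a reference group, these livers with a group headed Cpt2 and AlbCre (the Cpt2 group), and the latter with the reference. The reference has a header name that joins Rab30 and Cpt2 with an f, whose meaning is not given. The design text names littermate controls and states that all mice were fasted, and age and sex are not given in the labels. Nothing in the labels says that the 4 livers are from separate mice, so what is called spread here could be technical.

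Long-chain fatty acids released from fat tissue during a fast reach the liver bound to albumin. Cd36 and the Slc27 proteins help them cross the cell membrane, and Slc27 proteins also join them to coenzyme A. Fabp proteins hold fatty acids in the cytosol and carry them to mitochondria, peroxisomes, the endoplasmic reticulum and nuclear receptors. Cpt1a, on the outer mitochondrial membrane, starts the transfer of long-chain acyl groups into mitochondria, and Cpt2, on the inner membrane, completes it. Several of these genes are known targets of the nuclear receptor PPARA, which fatty acids activate.

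The libraries held 13138884 to 14116441 counts each, with 19732 to 20258 genes detected. Cpt1a transcript was present at 24.4 to 36.9 FPKM (fragments scaled to gene length and library depth), and its log2 fold change was -2.79 against the reference group in the authors' deposited table (adjusted p = 5.27e-51). The Cpt2 transcript was not called lower in the Cpt2 group, at a log2 fold change of -0.07 in the authors' deposited table (adjusted p = 0.837), so the transcript does not check that label. Hepatocyte markers summed to 24419 to 32614 FPKM per liver. It is not given whether the groups shared a sequencing run, and run and genotype cannot be told apart. In whole liver, fewer cells of a type and less RNA per cell cannot be told apart either.

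In the Cpt1a knockout livers the binding protein of the liver type led, and 9 of the 10 genes had a mean of at least 1 FPKM. Fabp1 (ENSMUSG00000054422, GRCm38 chr6:71199827-71205023), the abundant cytosolic fatty acid carrier of hepatocytes, had 1058, 1592, 5015 and 4757 FPKM in livers 1 to 4, and its mean ranked 18 among all genes. Livers 3 and 4 were high and livers 1 and 2 low, 4.74-fold from the lowest to the highest. Slc27a2 (ENSMUSG00000027359, GRCm38 chr2:126552407-126588243), a transport protein and very long-chain acyl-CoA synthetase of liver, had 470, 401, 448 and 463 FPKM within 1.17-fold of each other. Fabp2 (ENSMUSG00000023057, GRCm38 chr3:122895072-122899506), the intestinal type, had 163, 213, 279 and 360 FPKM, a mean of 254 ± 85.2 (SD, n = 4) that ranked 172. These 3 genes did not overlap in level.

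Cd36 (ENSMUSG00000002944, GRCm38 chr5:17781690-17888801), a receptor for long-chain fatty acids and oxidised lipoproteins, had 54.9, 35.2, 23.8 and 27.9 FPKM. Liver 1 was highest for Cd36 and lowest for Fabp1. The other 2 transport proteins were lower and even: Slc27a1, known from muscle and fat, was at 11.2 ± 0.806 FPKM and Slc27a4, known from intestine and skin, at 8.33 ± 0.701 (SD, n = 4 each). Fabp7, the brain type, was at 4.84 ± 0.598 FPKM, Fabp4, the type of fat cells and macrophages, at 3.72 ± 0.869 and Fabp5, the epidermal type, at 1.61 ± 0.557 (SD, n = 4 each). The ranges of Fabp7 and Fabp4 overlapped, and those of the other neighbours in this order did not. Fabp3 (ENSMUSG00000028773, GRCm38 chr4:130308595-130315463), the heart and muscle type, had 3, 0, 3 and 1 counts. Its 7 counts in all have an exact Poisson interval of 2.81 to 14.4 at 95%, which covers counting error only, or 0.704 to 3.61 counts per liver.

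**Figure D1:**
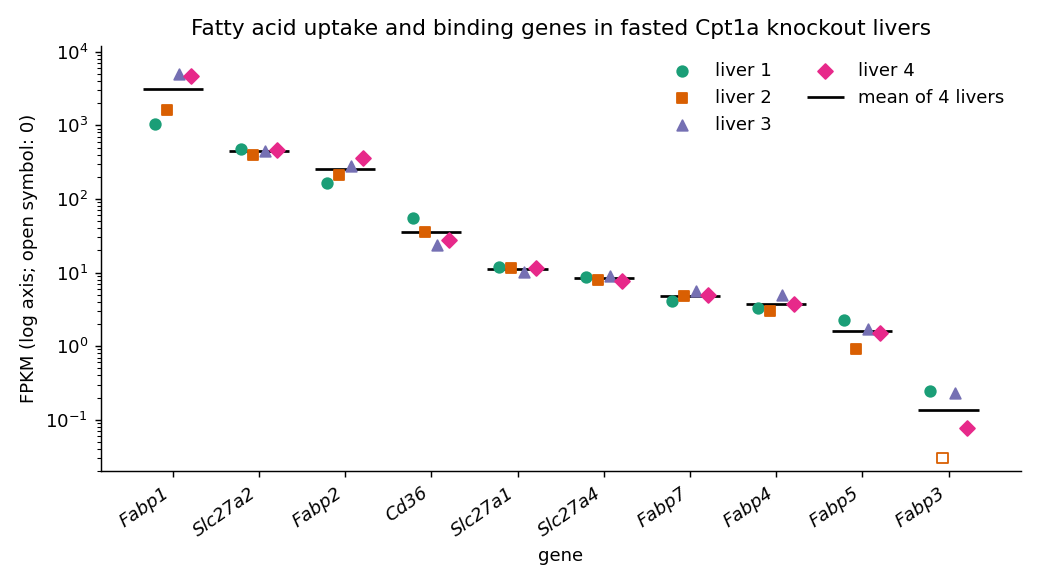
FPKM of each gene (log axis) in each of the 4 fasted Cpt1a knockout livers, with a bar for the mean. Fabp1 spreads from 1058 to 5015 FPKM, Cd36 is highest in liver 1, and Fabp3 lies below 1 FPKM in all 4 livers.

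Part of this order rests on the gene lengths. The authors' gene models of Fabp4 and Fabp5 span 4489 and 3567 bases, 5.01 and 3.61 times the 896 and 987 bases of their GENCODE M21 coding transcripts with the longest coding sequence. Per base of those transcripts Fabp4 would be at 18.6 ± 4.35 and Fabp5 at 5.80 ± 2.01 (SD, n = 4 each). Slc27a1 had a ratio of 2.09, and would be at 23.4 ± 1.68. Fabp4 then overlapped Slc27a1 and lay above Slc27a4 (9.07 ± 0.763). Fabp1, Fabp2 and Fabp3 had the same length in both sources. Fold changes between groups do not depend on these lengths.

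The 3 genes called higher in both comparisons with the reference group (Cd36, Fabp1 and Fabp2) and Fabp3, which had the largest fold change, are shown by up to 250 bases before their RefSeq start on GRCm38.p6, 5′ to 3′ on the strand of the gene. The stretches of Fabp1 and Fabp3 stop where the gene model in the files begins, and that of Cd36 lies inside its longer gene model, outside the GENCODE exons of the gene. Fabp1 is at chr6:71199629-71199826 (plus), Fabp2 at chr3:122894822-122895071 (plus), Cd36 at chr5:17835897-17836146 (minus) and Fabp3 at chr4:130308488-130308594 (plus). Capitals mark matches to the motifs named after them, read on both strands.
Fabp1: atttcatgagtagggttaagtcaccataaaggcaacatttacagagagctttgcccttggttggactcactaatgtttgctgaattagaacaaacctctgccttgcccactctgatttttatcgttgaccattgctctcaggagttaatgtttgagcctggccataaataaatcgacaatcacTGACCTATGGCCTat
Fabp2: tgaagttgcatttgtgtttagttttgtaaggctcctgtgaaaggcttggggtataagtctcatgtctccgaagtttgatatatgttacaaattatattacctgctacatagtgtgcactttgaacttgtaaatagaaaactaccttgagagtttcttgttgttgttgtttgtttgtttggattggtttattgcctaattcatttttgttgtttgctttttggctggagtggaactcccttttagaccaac
Cd36: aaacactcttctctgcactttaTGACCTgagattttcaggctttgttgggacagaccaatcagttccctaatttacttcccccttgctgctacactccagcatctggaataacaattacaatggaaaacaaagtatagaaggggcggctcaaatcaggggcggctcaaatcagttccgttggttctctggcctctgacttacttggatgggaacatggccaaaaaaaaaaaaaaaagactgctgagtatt
Fabp3: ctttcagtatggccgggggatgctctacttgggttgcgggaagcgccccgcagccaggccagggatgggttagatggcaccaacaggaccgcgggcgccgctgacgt

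The 3 motifs searched were the DR1 element, a direct repeat of nuclear receptor half-sites spaced by 1 base as PPARA with its partner RXR prefers, the half-site AGGTCA, which can lie within the first, and TATAAA. Windows of 250 bases before to 50 after the start were found for 8 of the 10 genes, 10 windows in all. The DR1 element was in the Fabp1 window alone among them, as TGACCTATGGCCT from -67 to -55, and in 0.381% of all 32851 windows. Fabp1 also had TATAAA from -30 to -25, past the end of the stretch shown (13.6% of all windows). Positions are counted from -1 at the last base before the RefSeq start. The half-site was in the windows of Fabp1, Cd36, Slc27a2 and Fabp7 (16.3% of all windows), in Cd36 from -228 to -223. Fabp2 and Fabp3 had no match to these letters in their windows.

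The spread between livers differed from gene to gene. On the log2(FPKM + 1) scale the SD of Fabp1 was 1.13, at percentile 99.4 of the 10859 genes with a mean of at least 1 FPKM, whose median was 0.20. Cd36 (0.51) and Fabp2 (0.49) were at percentiles 92.6 and 92.0. The transport proteins were among the steadier genes, with Slc27a1, Slc27a2 and Slc27a4 at percentiles 13.0, 14.7 and 16.3. Fabp7 was at 31.2, Fabp4 at 65.8 and Fabp5 at 79.0.

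The livers also differed by gene length across the transcriptome. Among 3007 protein-coding genes with a mean of at least 10 FPKM, the 169 shorter than 1 kb had median departures from their own mean of -0.44, -0.10, 0.31 and 0.25 in livers 1 to 4 (log2). The 179 genes of 8 kb and over had 0.25, 0.06, -0.18 and -0.12. Short genes were thus low in liver 1 and high in livers 3 and 4, and long ones the reverse. Fabp1, at 553 bases, departed by -1.25, -0.66, 0.99 and 0.92, in the same direction as its class in each liver, and by more. Fabp2, at 965 bases, departed by -0.57, -0.19, 0.20 and 0.56. Cd36, in the class of 2 to 4 kb with medians of 0.02, -0.07, 0.08 and -0.02, departed by 0.69, 0.06, -0.48 and -0.26, farther from 0 than its class in livers 1, 3 and 4. The part of length in the spread of Fabp1 and Fabp2 was not tested.

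**Figure D2:**
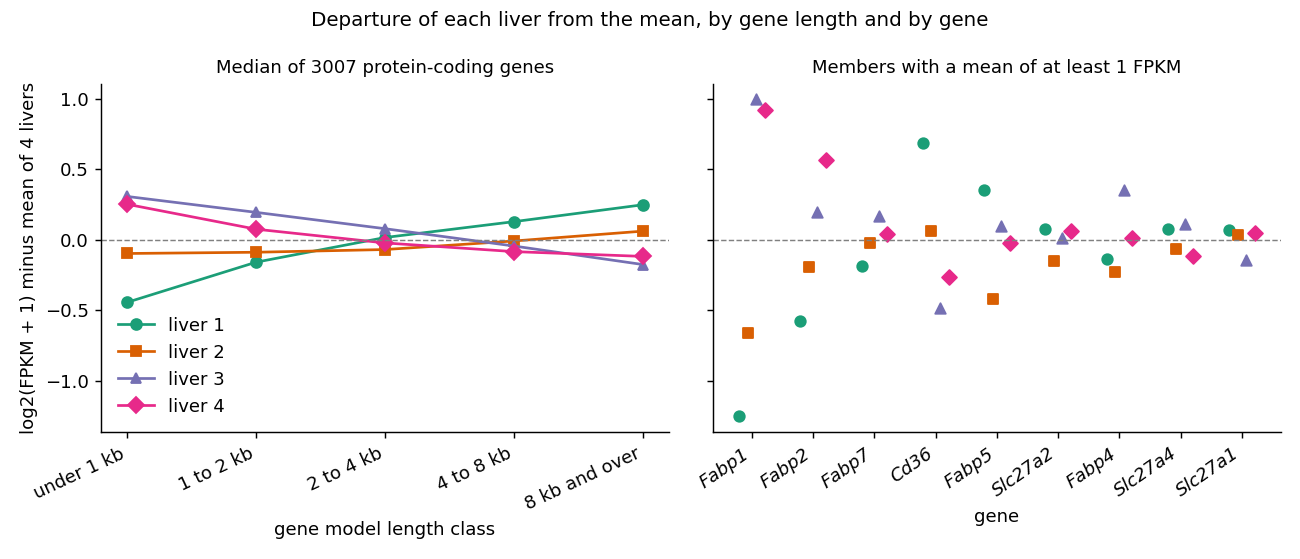
Left, the median departure of each liver from the mean of 4 livers on the log2(FPKM + 1) scale for 5 classes of gene length; right, the same departure for the 9 genes with a mean of at least 1 FPKM. Fabp1 goes from -1.25 in liver 1 to 0.99 in liver 3, in the direction of the genes under 1 kb, and Cd36 goes the opposite way.

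Compared with the reference, livers of the Cpt1a knockout held more transcript of Cd36 and of 4 binding proteins, and none of the 3 transport proteins was called. A gene is called here at an adjusted p below 0.05 in the authors' deposited table. Cd36 was 6.55-fold higher, Fabp2 3.24-fold, Fabp1 3.19-fold, Fabp5 3.01-fold and Fabp7 2.51-fold in the authors' deposited table. With these, 5 of 10 members were higher and 0 lower. Over all genes 14.4% of about 16862 tested were called, 6.81% higher and 7.60% lower.

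The value of each liver shows how evenly these calls were carried. The authors scaled counts between the libraries of a table. The reference level used here is the one implied by the mean scaled count of the 4 livers and the log2 fold change, both from the authors' deposited table. An implied level, here and for the Cpt2 group, comes from these same livers and holds no spread of the other group. Livers that all lie on the same side of it are therefore no test beyond the fold change. Cd36 had scaled counts of 2867, 1843, 1249 and 1463 in livers 1 to 4, against an implied 283 from the authors' deposited table. All 4 livers were above that level, from 4.41-fold in liver 3 to 10.1-fold in liver 1. The authors' deposited table gave Cd36 a log2 fold change of 2.71 (adjusted p = 7.75e-14).

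Fabp2 had scaled counts of 2294, 2999, 3946 and 5077 against an implied 1105, from 2.08-fold to 4.60-fold higher, in the authors' deposited table (log2 fold change 1.70, adjusted p = 6.32e-07). Fabp1 had 8519, 12845, 40579 and 38454 against an implied 7868 in the authors' deposited table. Liver 1 was only 1.08-fold and liver 2 1.63-fold above that level, while livers 3 and 4 were 5.16-fold and 4.89-fold above. A log2 fold change of 1.67 came with an adjusted p of 0.0415 in the authors' deposited table. Without liver 1 the log2 ratio to the implied level was 1.96, and without liver 3 it was 1.34. Protein-coding genes under 1 kb had a median log2 fold change of 0.35 in this comparison, against -0.13 for those of 2 to 4 kb, from the sum of the authors' other tables. Less the median of that class, Fabp1 stood at 1.31 and Fabp2 at 1.34 (log2).

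Fabp5 had scaled counts of 117, 47.5, 90.4 and 79.1 against an implied 27.8 in the authors' deposited table (log2 fold change 1.59, adjusted p = 5.40e-05). Liver 2 was the lowest at 1.71-fold, and liver 1 the highest at 4.22-fold. Fabp7 was even, at 74.7, 86.3, 101 and 91.1 against an implied 35.2, from 2.12-fold to 2.88-fold higher, in the authors' deposited table (log2 fold change 1.33, adjusted p = 0.00113). By gene model Fabp5 was in the class of 2 to 4 kb and Fabp7 in that of 1 to 2 kb, with medians of -0.13 and 0.07 in this comparison. Their GENCODE transcripts have 987 and 880 bases, and genes with models under 1 kb had a median of 0.35. What remains less a class median thus depends on the length used. Fabp5 is known from skin and macrophages, and Fabp7 has been described in Kupffer cells, the resident macrophages of liver. Of 11 macrophage markers, 2 were called higher and 0 lower by the authors' deposited table, with Lyz2 at a log2 fold change of 1.31 and Cd5l at 0.65. Over all genes tested 14.4% were called, 6.81% higher, so a count of 2 is small. The median over the 11 was 0.50, against 0.01 over all genes tested, both from summing the authors' other tables. These markers summed to 223 to 247 FPKM in the 4 livers, and none was at 0. Their part in Fabp5 and Fabp7 was not tested.

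The 5 other genes were not called. Fabp4 was 1.61-fold higher (log2 fold change 0.68, adjusted p = 0.0552) and Slc27a1 1.56-fold higher (0.64, adjusted p = 0.0992) in the authors' deposited table, with all 4 livers above the implied level for each. Slc27a2 was 1.27-fold lower (-0.34, adjusted p = 0.122) in the authors' deposited table, with all 4 livers below. Slc27a4 and Fabp3 are not listed there, since that table stops at its 4461 genes of unadjusted p up to 0.05. Summing the authors' other tables gave them log2 values of -0.30 and 0.39. Of the fat cell markers, Lep and Retn were at 0 in all 4 livers, Adipoq was detected in liver 1 only and Plin1 at 0.014 FPKM in that liver, and Adrb3 was at 1.14 FPKM.

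**Figure D3:**
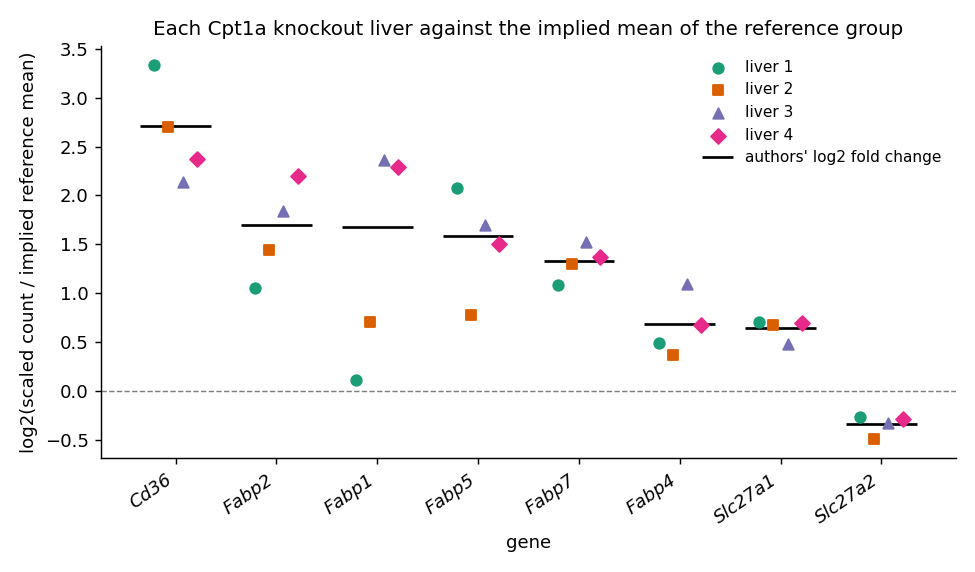
Scaled count of each Cpt1a knockout liver over the implied mean of the reference group (log2), for the 8 genes that the authors' table lists, with a bar for the authors' log2 fold change. All livers lie above that level for 7 genes and below it for Slc27a2, and Fabp1 in liver 1 is closest to it at 0.11.

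The Cpt2 group had more transcript of 7 of the 10 genes than the reference group, among them Fabp3. The authors' deposited table listed 7 as called higher and 0 as called lower. Over all genes, 21.0% of 17475 tested were called, 10.3% higher and 10.7% lower. Cd36 was 10.5-fold higher in the authors' deposited table (log2 fold change 3.39, adjusted p = 1.41e-29). Slc27a1 and Slc27a4 were 2.64-fold and 2.63-fold higher (log2 fold changes 1.40 and 1.39, adjusted p = 8.99e-06 and 1.45e-09) in the authors' deposited table. Slc27a2 was not called there, at a log2 fold change of 0.18 in the authors' deposited table (adjusted p = 0.474).

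Among the binding proteins Fabp3 rose most, at a log2 fold change of 6.88 in the authors' deposited table (adjusted p = 2.34e-18). From the mean of the Cpt1a knockout livers and the fold changes of the authors' deposited tables, the implied levels were 155 scaled counts in the Cpt2 group and 1.32 in the reference. Both rest on the 7 counts of Fabp3 in the 4 livers and on fitted fold changes, and the implied reference level is under 3 counts, so the fold change is no bound. Per kilobase of transcript the implied level of Fabp3 in the Cpt2 group was 189, above Fabp7 (65.0) and Fabp5 (20.2) and below Fabp4 (418). Reads of Fabp3 could be shared with its pseudogene Fabp3-ps1, which had 11 counts in the 4 knockout livers and a log2 fold change of 0.05 in the authors' deposited table (adjusted p = 0.982). Zcchc17, on the opposite strand and overlapping by 81 bases, was at 0.14 in the authors' deposited table (adjusted p = 0.671). Of 6 muscle markers, only 1 was tested and 0 were called in the authors' deposited table, so the others could not be called. In the Cpt1a knockout livers 5 of the 6 were at 0, which does not give their level in the Cpt2 group.

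Fabp2 was 3.10-fold higher (adjusted p = 6.36e-08), Fabp1 2.47-fold (adjusted p = 0.00199) and Fabp4 2.35-fold (adjusted p = 4.74e-05) in the Cpt2 group in the authors' deposited table. Genes under 1 kb had a median of -0.13 in this comparison, and less that median Fabp1 stood at 1.44, Fabp2 at 1.76 and Fabp3 at 7.01 (log2). Fabp5 (-0.55, adjusted p = 0.398) and Fabp7 (0.63, adjusted p = 0.268) were not called in the authors' deposited table. Among 11 macrophage markers 1 was higher and 3 were lower, where 21.0% of all genes tested were called, in the authors' deposited table. Cd68, a lysosomal protein, was at 2.60 and Clec4f, a Kupffer cell lectin, at -0.69 in the authors' deposited table.

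**Figure D4:**
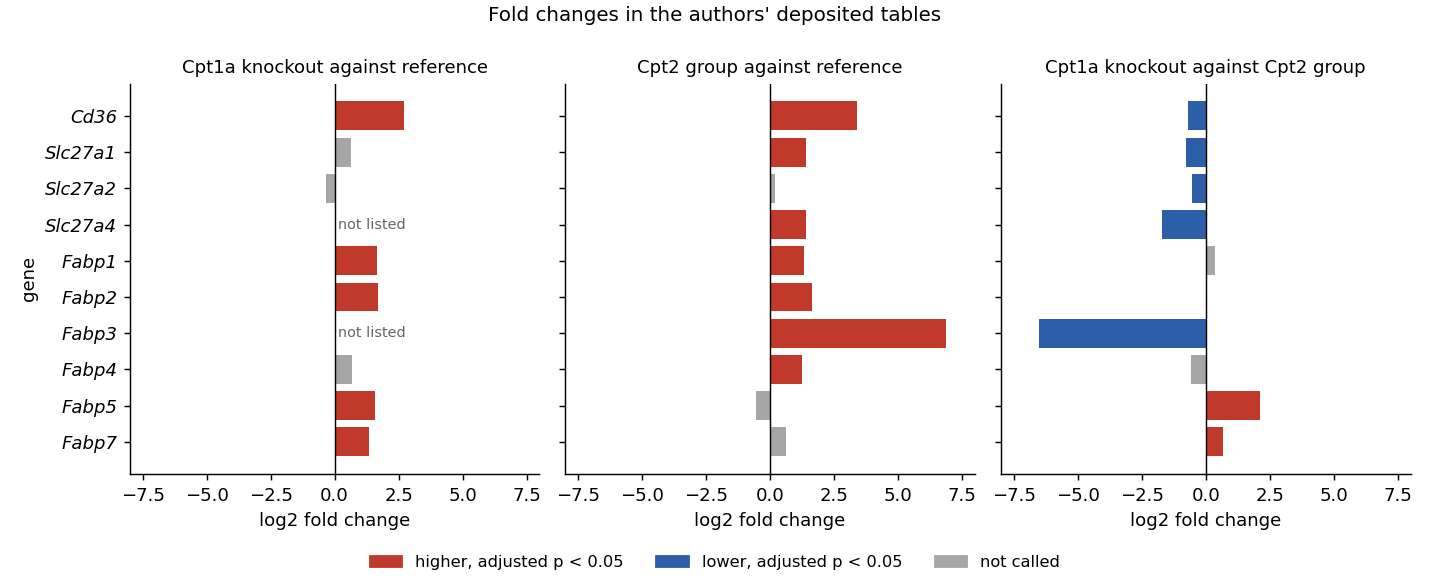
Log2 fold change of each gene in the authors' 3 deposited tables, coloured where the authors' adjusted p was below 0.05. Cd36, Fabp1 and Fabp2 are higher in the Cpt1a knockout and in the Cpt2 group than in the reference. Slc27a1, Slc27a2, Slc27a4, Fabp3 and Fabp4 carry a call only in tables that hold the Cpt2 group. Fabp5 and Fabp7 are higher in the Cpt1a knockout.

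Set against each other, the groups differed most in Fabp3, Fabp5 and Slc27a4. Of the 10 genes, 2 were higher and 5 lower in the Cpt1a knockout by the authors' deposited table, where 28.8% of 17755 genes tested were called (14.2% higher, 14.6% lower). This comparison uses the same Cpt1a and Cpt2 libraries as the others. It tests the difference between these groups directly.

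Fabp3 had 3.05, 0, 2.87 and 0.972 scaled counts in livers 1 to 4 against an implied 155 in the Cpt2 group from the authors' deposited table (log2 fold change -6.49, adjusted p = 3.96e-22). With the livers at the upper limit of their counting interval, the implied Cpt2 level would be 43.1-fold higher. Slc27a4 had 592, 528, 607 and 511 against an implied 1806 in the authors' deposited table (-1.69, adjusted p = 1.02e-18). All 4 livers lay at 0.283 to 0.336 of that level. Slc27a1 was 1.70-fold lower in the Cpt1a knockout (adjusted p = 4.50e-06) and Slc27a2 1.45-fold lower (adjusted p = 1.62e-04) in the authors' deposited table, with all 4 livers below the implied level for each. All 3 transport proteins were lower than in the Cpt2 group.

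Cd36 was 1.62-fold lower in the Cpt1a knockout in the authors' deposited table (log2 fold change -0.70, adjusted p = 0.0109). Its scaled counts were 3001, 1916, 1298 and 1529 against an implied 3142, so liver 1 was at 0.955 of that level and liver 3 at 0.413. Fabp5 went the other way, at 123, 49.4, 93.9 and 82.6, from 2.48-fold to 6.16-fold the implied Cpt2 level, in the authors' deposited table (log2 fold change 2.13, adjusted p = 4.56e-07). Fabp7 was 1.61-fold higher (adjusted p = 0.0390) in the authors' deposited table, from 1.37-fold in liver 1 to 1.84-fold in liver 3. Its class of 1 to 2 kb had a median of 0.19 in this comparison, which leaves 0.50 of its 0.69 (log2). That class rests on its gene model of 1250 bases. Its GENCODE transcript has 880 bases, and genes with models under 1 kb had a higher median of 0.48, so the remainder depends on the length used. Beside both, 9 of 11 macrophage markers were called higher, 1 lower, by the authors' deposited table, with a median of 0.92 against 0.05 over all genes tested. The shares over all genes tested were 14.2% higher and 14.6% lower. All 4 red blood cell markers were higher too, and 5 of 9 endothelial markers, in the authors' deposited table. The part of these cells in Fabp5 and Fabp7 was not tested.

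Fabp1, Fabp2 and Fabp4 were not called between the Cpt1a knockout and the Cpt2 group. The log2 fold change of Fabp1 was 0.35 (adjusted p = 0.694) in the authors' deposited table, with livers 1 and 2 below and livers 3 and 4 above the implied Cpt2 level of 20478. Fabp2 had 0.05 (adjusted p = 0.907), again with 2 livers on each side, and Fabp4 had -0.56 (adjusted p = 0.0583), with all 4 below, in the authors' deposited table. Genes under 1 kb had a median of 0.48 in this comparison, and less that median Fabp1 stood at -0.12 and Fabp2 at -0.43 (log2), the opposite sign for each.

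Slc27a5, a transport protein and bile acid CoA ligase of liver at 209 FPKM, fell in both comparisons with the reference group, at -1.20 (Cpt1a knockout) and -1.32 (Cpt2 group) on the log2 scale by the authors' deposited tables (adjusted p = 2.65e-07 and 3.77e-18). It was the only other Slc27 gene with a mean of at least 1 FPKM. Scarb1, the HDL receptor and a relative of Cd36, fell by 0.83 (Cpt1a) and by 1.47 (Cpt2) on the log2 scale by the authors' deposited tables (adjusted p = 1.90e-04 and 2.65e-11).

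Next to the Fabp proteins, the cytosolic acyl-CoA carrier Dbi was at 276 ± 58.7 FPKM (SD, n = 4) and rose in both comparisons with the reference, at 1.62 (Cpt1a) and 0.78 (Cpt2) in the authors' deposited tables (adjusted p = 1.29e-11 and 0.0354). Of 7 acyl-CoA binding and sterol carrier genes, 2 were higher and 0 lower against the reference group in each of the authors' deposited tables. The other was Acbd4 in the Cpt1a knockout (0.57) and Acbd3 in the Cpt2 group (0.49). Over all genes tested, 14.4% (Cpt1a) and 21.0% (Cpt2) were called, and the medians of this list were -0.10 and 0.19 (log2). Scp2, a sterol and acyl-CoA carrier at 892 FPKM, was lower in the Cpt1a knockout than in the Cpt2 group, at -0.56 in the authors' deposited table (adjusted p = 0.00449). Of the 5 long-chain acyl-CoA synthetases, Acsl3 and Acsl4 were lower in the Cpt1a knockout (-0.99 and -0.72) and Acsl5 was higher in the Cpt2 group (0.58) by the authors' deposited tables. Acsl1, the most abundant at 174 FPKM, was in no list of calls.

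Of 11 lipases, their regulators and lipoprotein receptors, 1 was higher and 4 lower (Cpt1a), and 1 higher and 3 lower (Cpt2), against the reference by the authors' deposited tables. The share called over all genes tested was 14.4% (Cpt1a) and 21.0% (Cpt2). Lipc, hepatic lipase, was lower in both, at -1.20 and -1.15 in the authors' deposited tables. Of 7 uptake partners, Cav2, a caveolin, was higher (1.26) and Got2, a mitochondrial aminotransferase also described at the cell surface, lower (-0.43) in the Cpt1a knockout in the authors' deposited table, and Cav1 and Lypla1 were lower in the Cpt2 group (-0.94 and -0.60) by the authors' deposited table.

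Of 13 known regulators of these genes, 0 were higher and 2 lower in the Cpt1a knockout by the authors' deposited table: Ppargc1a, a coactivator, at -1.23 and Hnf4a at -0.70. Over all genes tested, 14.4% were called there and 21.0% in the Cpt2 group, so counts this small are near the general share. In the Cpt2 group Pparg (1.39, adjusted p = 1.28e-07) and Ppara (0.72, adjusted p = 0.0386) were higher, and Ahr and Cebpa lower, in the authors' deposited table. In the Cpt1a knockout Pparg (0.64, adjusted p = 0.0715) and Ppara (0.64, adjusted p = 0.0642) were just short of a call. Directly between these groups Ppara was not called (-0.10, adjusted p = 0.825) and Pparg was lower in the Cpt1a knockout (-0.77, adjusted p = 0.00147), in the authors' deposited tables. Pparg was at 4.16 FPKM and Ppara at 50.2 FPKM in the Cpt1a knockout livers. Of 16 PPARA targets outside the members, 6 were higher in the Cpt1a knockout and 11 in the Cpt2 group and 0 lower in either, in the authors' deposited tables. Their medians were 0.56 and 1.73 on the log2 scale, against 0.01 and -0.03 over all genes tested. These 16, like the other lists, were chosen with earlier results of these data known, and they are not all known targets. Angptl4, counted with the lipases and their regulators, was lower in the Cpt1a knockout (-0.98, adjusted p = 2.93e-04) in the authors' deposited table. In the Cpt2 group Angptl4 was not called (-0.44, adjusted p = 0.133), in the authors' deposited table. Between these groups 10 of the 16 were lower in the Cpt1a knockout, among them Pdk4 (-3.21) and Plin2 (-2.09), in the authors' deposited table. Over all genes tested, 14.6% were lower there.

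Of 7 genes linked to PPARG in fat-laden liver, 4 were higher in the Cpt2 group in the authors' deposited table, Cidec (3.51), Mogat1 (2.40), Plin4 (2.27) and Cidea (6.35). Mogat1 and Cidea had means of only 0.43 and 0.083 FPKM in the Cpt1a knockout livers, and fold changes of genes near the floor are uncertain in size. Cidec was the only one of the 7 higher in the Cpt1a knockout (1.74) and Plin5 was lower (-0.93) in the authors' deposited table. Of 7 hepatocyte markers, 3 (Cpt1a) and 4 (Cpt2) were lower against the reference by the authors' deposited tables, with Alb, serum albumin, at -1.23 and -1.41. Over all genes tested, 14.4% (Cpt1a) and 21.0% (Cpt2) were called, 7.60% and 10.7% lower and 6.81% and 10.3% higher.

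**Figure D5:**
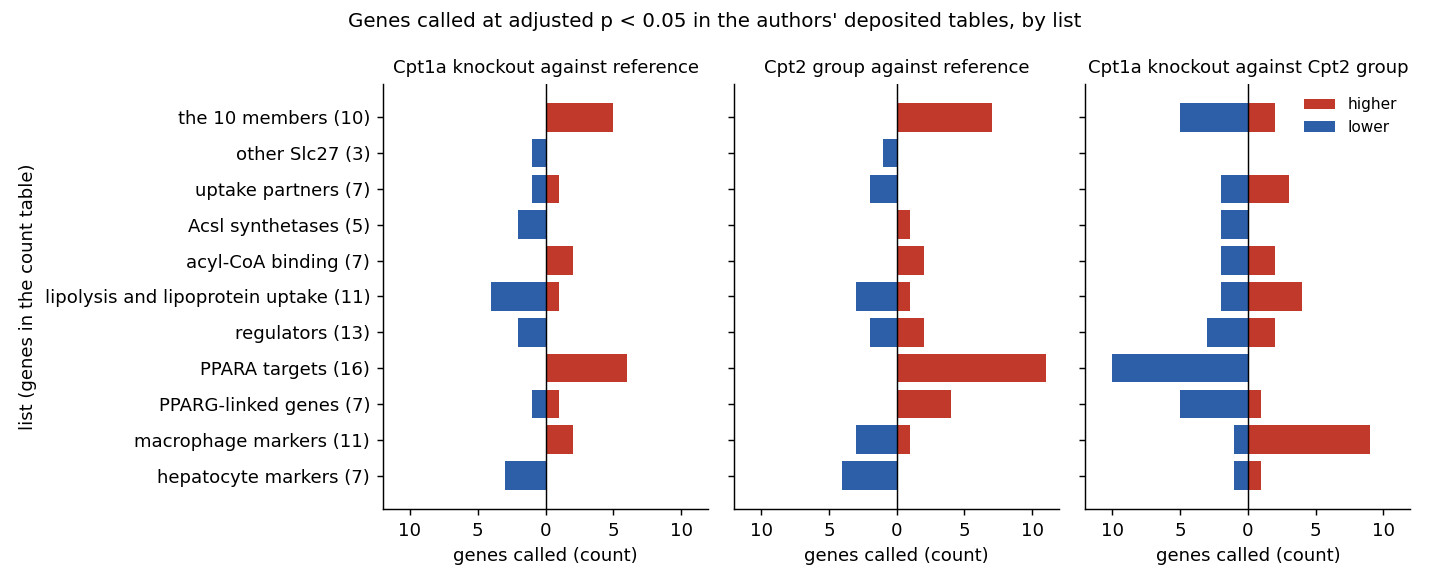
Number of genes of each list called higher (right of 0) or lower (left of 0) at an adjusted p below 0.05 in the authors' 3 deposited tables. The 10 members show 5, 7 and 2 higher, and PPARA targets 6 and 11 higher against the reference group and 10 lower between the Cpt1a knockout and the Cpt2 group.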

How the data were processed

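The submitters' processing notes name HISAT2 and the build GRCm38 (mm10). How reads were counted, with which annotation and strand, and which test was used is not given. Per the file headers, the authors deposited raw read counts per gene, FPKM with a gene length, and 3 comparison tables with scaled counts and their group mean (a signal per gene), log2 fold changes, p-values and adjusted p-values. Another 8 per-sample columns of the count table, and the group means of those samples, belong to no sample here and were not used; levels of the other groups are those implied by the Cpt1a knockout mean and the log2 fold change.

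With 1 group of 4 libraries no test between groups could be fitted. Calls are the authors' adjusted p below 0.05, and genes at an adjusted p of 1 were taken as untested. The number of genes tested in the partial table was recovered from its p and adjusted p. Between pairs of libraries, squared differences averaged 20.5 to 68.1 times the variance of counting error (chi-square per gene). The members, the 10 other gene lists and the 13 marker lists were chosen with earlier results of these data known. All members are named, with up to 4 called genes per list and table and the 2 most abundant, and others as examples. Genes of like fold change were the 3 nearest. Values were computed with Python 3.11.15, pandas 2.3.3 and edgeR 4.0.16 (TMM scaling only), and the scripts were tested on simulated data. Promoters are from RefSeq (GRCm38.p6), and transcript lengths from GENCODE M21. The protein comparison that had been planned was not made. Results for some genes of the other lists are not reported here.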

Additional observations from a re-analysis of the deposited data

Results flagged for a closer look

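Slc27a1 was at 11.8, 11.5 and 11.6 FPKM in livers 1, 2 and 4, and was lowest in liver 3. The distance of liver 3 to the next liver was 0.831 of the whole range, above Dixon's 95% critical value for 4 samples. The range itself was narrow, 1.18-fold. About 1 in 20 groups is flagged so by chance, and 10 genes were looked at.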

How the results depend on the processing

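The number of members with a mean of at least 1 (9) was the same as TPM, with TMM scaling, by the median, per transcript length (an alternative chosen after seeing the data) and without each liver. Counts of called members were 5, 7 and 7 at an adjusted p below 0.05, and 4, 7 and 5 at 0.01, where Fabp1 against the reference group and Cd36 and Fabp7 between Cpt1a and Cpt2 lost their call. Where a log2 fold change beyond 1 either way was required too, the counts were 5, 7 and 3, so the comparison of the Cpt1a knockout with the Cpt2 group moved from 7 to 3. Subtracting the median of the length class and leaving out each liver, both chosen after seeing the data, changed no direction of a called gene, but the former turned the uncalled Fabp1 and Fabp2 between Cpt1a and Cpt2 to -0.12 and -0.43, and Fabp2 was at -0.17 there without liver 4. As TPM, the values of all 10 members were higher by more than their SD between livers, such as Cd36 from 35.4 to 93.1 and Fabp1 from 3105 to 8021. TPM is another unit, and the order of the members stayed the same. The authors' tests could not be refitted without a liver. The number of members above the median spread was 5, 4 to 5 without each liver, and 7 against all genes with a count. No paired analysis was possible because the series holds 1 group. Depth limits Fabp3, with at most 3 counts per liver. Levels of Fabp4 and Fabp5 depend on the gene length used.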

Other observations

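Markers of other cells were counted in the authors' deposited tables too, in the order Cpt1a knockout against the reference, Cpt2 group against the reference and Cpt1a knockout against the Cpt2 group. Over all genes tested, 14.4%, 21.0% and 28.8% were called in that order. Of 6 stellate cell markers 1, 0 and 1 were higher and 0, 0 and 1 lower. Of 6 lymphocyte markers 2, 0 and 2 were higher, and of 5 neutrophil markers 1, 0 and 1, with 0 lower. Of 4 bile duct markers 0, 0 and 1 were higher and 0, 1 and 0 lower. Of 4 red blood cell markers 0, 0 and 4 were higher and 0, 4 and 0 lower, and they summed to 157 to 442 FPKM in the 4 livers. Of 9 endothelial markers 1, 0 and 5 were higher and 0, 1 and 0 lower. Of 5 fat cell markers 0, 0 and 1 were higher and 1, 1 and 0 lower, and of 2 brown fat markers 0, 0 and 1 were higher. None of the 5 glial markers was called in these 3 tables, with 3 of them tested in each. Of the 4 enterocyte markers 0 were tested in any table, so their lack of calls says nothing about a change. The enterocyte markers summed to at most 0.0188 FPKM in a liver. Not all neutrophil markers (3, 3 and 4), fat cell markers (2, 3 and 2) and brown fat markers (1, 1 and 1) were tested, in the same order of tables.

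Genes with fold changes like those of the called members were looked up among protein-coding genes with a mean of at least 1 FPKM, by the distance in the plane of the authors' log2 fold changes for Cpt2 against the reference and for Cpt1a against Cpt2. Nearest to Cd36 were Ehhadh (distance 0.36), Pnldc1 (0.43) and Acot1 (0.60). Nearest to Fabp2 were Unc119 (0.08), Hacd1 (0.09) and Rpl30 (0.16), and to Fabp1 Ppih (0.04), Tomm40l (0.09) and Nat8 (0.14). Fabp5 had Hcst (0.24), Wfdc17 (0.29) and Gm9938 (0.29), and Fabp7 had Gm10131 (0.01), Rps27a (0.04) and Acyp2 (0.07). The plane rests on 2 values per gene from comparisons that share the Cpt2 libraries, and many genes lie close together where fold changes are small.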
